A study of Caenorhabditis elegans with 12 samples.

Results

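The binding sites of ZFP-1 in wild-type Caenorhabditis elegans larvae were the 2466 peaks of the ZFP-1 ChIP-seq list, taken whole and without any selection on their values. They made up 32.6% of the 7558 peaks in 6 lists from the same study, the others being those of JMJD-2 (816 peaks), TOP-2 (464), SIN-3 (1715), BLMP-1 (982) and SCC-1 (1115). Every list came from untreated whole animals of the strain N2, grown at 1 temperature in synchronized liquid culture and harvested as L3 larvae, and none of the groups carried a mutation or a transgene. Each protein was immunoprecipitated with its own antibody in 2 biological replicates, 12 samples in all, and the antibody to ZFP-1 was raised against the start of the protein. The 2 replicates were combined into 1 list of positions before deposit, so that no value below has a replicate error, and the lists carry neither read counts nor peak scores. Whole larvae mix many tissues, and a site bound in few cells cannot be told apart from a weak site bound in all of them.

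ZFP-1 is the worm homolog of the mammalian chromatin protein AF10. It carries PHD zinc fingers, modules that bind histone tails, and it acts with DOT-1.1, the enzyme that methylates lysine 79 of histone H3 in the bodies of transcribed genes. In worms the protein is known from promoters of widely expressed genes and from work on RNA interference. Among the other proteins, BLMP-1 is a transcription factor with zinc fingers, JMJD-2 removes methyl groups from histone H3, SCC-1 is a subunit of the cohesin ring that holds DNA segments together, SIN-3 is a scaffold of histone deacetylase complexes and TOP-2 is a type II topoisomerase that passes one DNA duplex through another.

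ZFP-1 peaks were short and alike in width. The median was 251 bp, the middle 90% of the peaks lay between 199 and 322 bp, and the list covered 631 kb or 0.630% of the genome as measured here, which is from the start of each chromosome to the last peak of any list on it. No ZFP-1 peak overlapped another. The 3 widest peaks lay on II from 11635515 to 11636109 (595 bp), on X from 16147589 to 16148086 (498 bp) and on I from 9470966 to 9471423 (458 bp). The 3 narrowest lay on V from 20253223 to 20253317 (95 bp), on II from 11757159 to 11757284 (126 bp) and on III from 8441707 to 8441834 (128 bp). All positions are 1-based in the genome build ce10.

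Sites of ZFP-1 came near the left ends of the autosomes, whereas the right ends are known here only as the last peak of any list. The first ZFP-1 peak on II began at base 725, the first on V at base 8790, and on I, III and IV the first began at bases 39669, 25632 and 51274. On X the first began at base 180560, farther in than on any autosome. At the other end the last ZFP-1 peak on V, from 20903727 to 20903984, was also the last peak of all 6 lists there, and on the remaining chromosomes between 4031 bp (I) and 54279 bp (X) lay between the last ZFP-1 peak and the last peak of any list.

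The density of ZFP-1 peaks was 24.6 per Mb over the genome and differed between chromosomes. III had 31.1 per Mb (428 peaks), I 29.9 (450), X 26.1 (461), IV 23.9 (417), II 23.2 (354) and V 17.0 (356). Chromosome V thus held 14.4% of ZFP-1 peaks (95% interval 13.1 to 15.9%) on 20.9% of the length, whereas III held 17.4% (15.9 to 18.9%) on 13.8% of the length. These and all intervals below are exact Clopper-Pearson intervals at 95%, which take peaks as independent units and cover counting error only. On X the share of ZFP-1 peaks, 18.7% (17.2 to 20.3%), included the share of the length, 17.7%.

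Between chromosomes, ZFP-1 differed from the other 5 lists together on X and passed the test on no autosome. X held 461 of 2466 ZFP-1 peaks and 707 of 5092 other peaks, a difference of 4.81 percentage points, ZFP-1 minus the others as in all differences between lists below (adjusted p = 5.67e-07, two-sided Fisher's exact test, Benjamini-Hochberg over 6 chromosomes). On the autosomes the differences ran from -1.71 points on II to 0.0216 points on V (adjusted p from 0.173 to 1, Fisher's exact test). Put another way, ZFP-1 supplied 39.5% of all peaks on X (36.7 to 42.3%) and between 30.2% (II) and 32.7% (V) of all peaks on each autosome. The other lists were unlike each other on X, which held 25.2% of TOP-2 peaks, 20.8% of BLMP-1 peaks and 18.1% of JMJD-2 peaks but 8.34% of SIN-3 and 8.52% of SCC-1 peaks. ZFP-1 was therefore set against a pool in which the low shares came from SCC-1 and SIN-3.

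Along the autosomes ZFP-1 peaks were denser in the middle. The arms were taken as the outer 33.3% of each chromosome at either end and the center as the stretch between them. Centers held 28.7 ZFP-1 peaks per Mb (790 peaks), left arms 23.1 (634) and right arms 21.1 (581), a center density 1.30 times that of the arms. The ratio was above 1 on each autosome, at 1.46 on IV, 1.45 on I, 1.30 on V, 1.20 on II and 1.10 on III. The interval of the share of ZFP-1 peaks on arms lay below the arms' 66.7% of the length on I, IV and V. On II and III it included 66.7%, so counting error alone could account for the ratio there. The left arm and the center of III held 152 peaks each, and only its right arm held fewer (124). On X the ratio was 0.846, with 324 of 461 peaks (70.3%, 65.9 to 74.4%) on the outer parts, which hold 66.7% of the length. The same share on X ran from 70.1% for BLMP-1 to 78.9% for SCC-1 among the other lists. For ZFP-1 and BLMP-1 (63.3 to 76.3%) the interval included 66.7%, and for the remaining lists it lay above.

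With the autosomes cut into 10 bins of equal length, the ZFP-1 counts were 187, 155, 207, 216, 269, 195, 269, 203, 144 and 160 from left to right. The middle was not a plateau: bins 5 and 7 held 269 peaks each and bin 6 between them 195. On X the bins held 48, 44, 49, 33, 43, 39, 48, 49, 58 and 50 peaks, fewest in bin 4 and most in bin 9. The plot of density along the chromosome shows both profiles on the same scale.

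**Figure D1:**
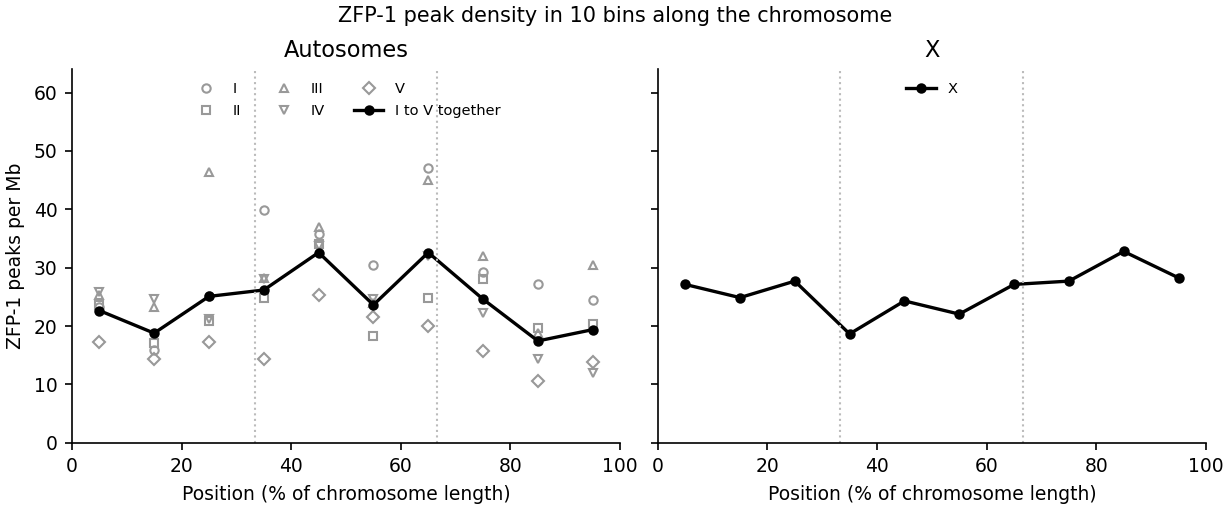
ZFP-1 peaks per Mb (vertical axis) in 10 bins of the chromosome length (horizontal axis, percent of length), for the autosomes on the left (gray symbols, single chromosomes; black line, I to V together) and for X on the right. Dotted lines mark the borders between arms and center. The autosomal line is highest in bins 5 and 7 and lowest in bin 9, whereas on X the lowest value is in bin 4.

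Set against each other list, the share of autosomal peaks on arms was 60.6% for ZFP-1 (1215 of 2005, 58.4 to 62.7%), where the arms hold 66.7% of the length. SIN-3 had 65.7% on arms (adjusted p = 0.00427, two-sided Fisher's exact test, Benjamini-Hochberg over 5 lists), SCC-1 65.8% (adjusted p = 0.00912, Fisher's exact test) and TOP-2 70.6% (adjusted p = 0.00198, Fisher's exact test), all higher than ZFP-1. JMJD-2 with 63.6% and BLMP-1 with 59.3% did not pass (adjusted p = 0.211 and 0.518, Fisher's exact test). When peaks of a list less than 1 kb apart were merged, the differences from SIN-3 (-3.01 points, adjusted p = 0.127) and from SCC-1 (-4.48 points, adjusted p = 0.0516) no longer passed Fisher's exact test, and the difference from TOP-2 did. With arms of 25% at each end the differences from SCC-1, SIN-3 and TOP-2 were larger, at -7.78, -7.99 and -15.9 points.

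**Figure D2:**
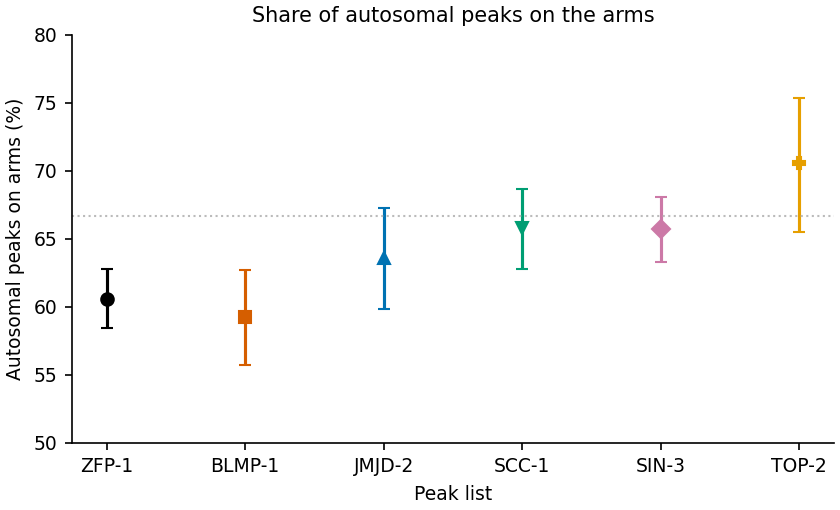
Share of autosomal peaks on the arms (vertical axis, percent, starting at 50) for each of the 6 lists (horizontal axis). Points are shares, bars exact 95% intervals, and the dotted line is the 66.7% of the length that the arms hold. The intervals of ZFP-1 and BLMP-1 lie below that line.

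On a scale of 1 Mb the number of ZFP-1 peaks varied widely. Over 97 whole windows placed end to end it ran from 8 to 53 with a median of 24, and the variance was 3.23 times the mean (3.59 times over 80 autosomal windows and 1.66 times over 17 windows on X). With windows moved in steps of 100 kb, the windows with the most ZFP-1 peaks on each chromosome began on III at 3600001 (53 peaks), I at 9000001 (53), II at 6700001 (42), X at 14700001 (41), IV at 10200001 (40) and V at 8400001 (29). The windows with the fewest began on V at 2300001 (5 peaks), I at 2300001 (6), II at 1600001 (7), IV at 15000001 (8), X at 6100001 (14) and III at 11500001 (14). Of windows with equal counts, which overlapped or stood apart, the one nearest the left end is given (2 windows each for the most on III and the fewest on II, 3 for the fewest on X and 4 for the most on V).

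Some windows poor in ZFP-1 were not poor in the other proteins. The window on I from 2300001 to 3300000 held 6 ZFP-1 peaks but 24 SIN-3, 21 SCC-1 and 13 JMJD-2 peaks, against list means of 17.1, 11.1 and 8.14 per Mb. On V the window from 2300001 to 3300000 held few peaks of any list, with 5 of ZFP-1, 4 of SIN-3, 3 each of SCC-1 and JMJD-2 and 1 each of BLMP-1 and TOP-2. Over the 97 windows the counts of ZFP-1 went along most with those of BLMP-1 (Pearson r = 0.43), then JMJD-2 (0.38), SIN-3 (0.32), SCC-1 (0.22) and TOP-2 (0.12). On the 80 autosomal windows BLMP-1 was again first (0.47), but SIN-3 (0.40) came before JMJD-2 (0.37). The 17 windows of X gave yet another order, with SIN-3 at 0.52, JMJD-2 at 0.47 and BLMP-1 at 0.03. These coefficients are descriptions: windows of 1 chromosome are neighbours, all lists come from the same kind of whole animal, and the lists differ in length.

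The spacing of ZFP-1 peaks varied by orders of magnitude. Midpoints of neighbouring ZFP-1 peaks were 22.1 kb apart in the median (mean 40.6 kb, 2460 gaps), and 33.3% of the gaps (820) were under 10 kb. The smallest gap was 275.5 bp and the middle 90% ran from 0.914 to 141 kb. By chromosome the median gap was 18.3 kb on III, 19.5 on I, 21.9 on X, 22.1 on IV, 25.5 on II and 33.1 on V, and the share under 10 kb went from 37.2% on III to 27.3% on V.

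The 5 longest stretches without a ZFP-1 peak lay on IV from 16663884 to 17121085 (457 kb), V from 2281919 to 2681266 (399 kb), II from 1820239 to 2195595 (375 kb), V from 3803677 to 4164395 (361 kb) and V from 16966960 to 17315069 (348 kb). They were not alike in what else they held. The stretch on IV held 10 SIN-3, 9 SCC-1 and 4 JMJD-2 peaks, and the stretch on II 5 TOP-2 and 5 SIN-3 peaks, whereas the last of the stretches on V held 2 BLMP-1 peaks and none of the other 4 lists.

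To compare spacing between lists of unequal length, each gap was divided by the mean gap of its list and chromosome, and gaps under 5% of that mean were called short. ZFP-1 had 13.0% short gaps (320 of 2460), fewer than TOP-2 with 21.2% (adjusted p = 5.76e-05, two-sided Fisher's exact test, Benjamini-Hochberg over 5 lists) and BLMP-1 with 17.1% (adjusted p = 0.00589, Fisher's exact test). SCC-1 with 14.4%, JMJD-2 with 11.98% and SIN-3 with 11.3% did not pass (adjusted p from 0.172 to 0.467, Fisher's exact test). The order against JMJD-2, SIN-3 and SCC-1 turned with the limit: at 2% of the mean ZFP-1 had fewer short gaps than JMJD-2 (-3.02 points, adjusted p = 0.00136, Fisher's exact test) and SIN-3 (-1.41 points, adjusted p = 0.0400, Fisher's exact test), and at 10% it had more. Against SCC-1 the difference was -4.21 points at 2% (adjusted p = 1.98e-06, Fisher's exact test) and 2.52 points at 10% (adjusted p = 0.113, Fisher's exact test), and against TOP-2 it was -13.9 points at 2%. At 10% the call against BLMP-1 was lost (-0.279 points, adjusted p = 0.854, Fisher's exact test). A limit set as a percentage of the mean gap is a shorter distance in base pairs in a longer list. Peaks of 1 list did not overlap, so the least possible gap takes up more of that limit in a longer list. By a fixed distance of 10 kb the order was the opposite, with 33.3% of ZFP-1, 22.3% of BLMP-1 and 21.4% of TOP-2 gaps below it. A fixed distance in turn favors a longer list.

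Most ZFP-1 peaks had no partner, a partner being a peak of another list with at least 1 bp in common. Of the 2466 ZFP-1 peaks, 655 had 1 or more partners (26.6%, 24.8 to 28.4%), against 38.6% of the 7558 peaks of all 6 lists. The same share was 14.9% for TOP-2, 32.3% for BLMP-1, 43.8% for SIN-3, 56.8% for SCC-1 and 60.5% for JMJD-2. A long list has fewer foreign peaks to meet for each of its own, and these shares are not corrected for that. Of the ZFP-1 peaks, 467 had 1 partner, 105 had 2, 67 had 3, 16 had 4 and none had all 5 (0 of 2466, exact upper limit 0.149%).

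The partners met most often at ZFP-1 peaks were SIN-3 (270 peaks, 10.9%, 9.74 to 12.2%) and BLMP-1 (268 peaks, 10.9%, 9.67 to 12.2%), followed by JMJD-2 (184, 7.46%), SCC-1 (168, 6.81%) and TOP-2 (52, 2.11%). As a share of the partner's own list, the overlap was 26.3% of BLMP-1, 22.5% of JMJD-2, 15.7% of SIN-3, 15.1% of SCC-1 and 11.2% of TOP-2 peaks. Partners differed in whether they came alone. TOP-2 was the sole partner at 43 of its 52 ZFP-1 peaks (82.7%) and BLMP-1 at 202 of 268 (75.4%), whereas SIN-3 was at 120 of 270 (44.4%), JMJD-2 at 62 of 184 (33.7%) and SCC-1 at 40 of 168 (23.8%).

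ZFP-1 peaks met BLMP-1 more often than the peaks of each other list did, met TOP-2 more often than BLMP-1, SCC-1 and SIN-3 peaks did, and met JMJD-2, SCC-1 and SIN-3 less often than these 3 met each other. Of 20 comparisons of a partner share, 17 passed the test, 11 with ZFP-1 higher and 6 with ZFP-1 lower. BLMP-1 peaks were found at 10.9% of ZFP-1 peaks, against 5.65% of SCC-1 peaks (adjusted p = 5.01e-07, two-sided Fisher's exact test, Benjamini-Hochberg over 20 comparisons), 4.66% of SIN-3 peaks (adjusted p = 4.65e-13, Fisher's exact test) and 1.08% of TOP-2 peaks (adjusted p = 7.09e-15, Fisher's exact test). Against JMJD-2 peaks, 7.84% of which met BLMP-1, the difference of 3.02 points passed at 1 bp (adjusted p = 0.0164) but not where midpoints had to lie within 250 bp (2.26 points, adjusted p = 0.0726, Fisher's exact test). Where at least 50% of both peaks had to overlap, the BLMP-1 differences were smaller, at 2.44 points against SCC-1 (adjusted p = 0.0106), 3.61 against SIN-3 (adjusted p = 1.60e-06) and 0.966 against JMJD-2 (adjusted p = 0.412, Fisher's exact test).

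Peaks of TOP-2 met 2.11% of ZFP-1 peaks, against 0.700% of SIN-3 peaks, 0.538% of SCC-1 peaks and 0.509% of BLMP-1 peaks (adjusted p from 0.000263 to 0.000686, Fisher's exact test), and JMJD-2 peaks with 1.23% did not pass (adjusted p = 0.152, Fisher's exact test). At 50% overlap the differences from SCC-1 and SIN-3 were 0.971 and 0.836 points. In the other direction, SCC-1 met 6.81% of ZFP-1 peaks, against 35.5% of JMJD-2 peaks and 27.9% of SIN-3 peaks (adjusted p = 5.06e-80 and 1.54e-75, Fisher's exact test). SIN-3 met 10.9% of ZFP-1 peaks, against 42.9% of SCC-1 peaks and 37.0% of JMJD-2 peaks (adjusted p = 5.68e-97 and 3.72e-57, Fisher's exact test). JMJD-2 met 7.46% of ZFP-1 peaks, against 26.0% of the SCC-1 list and 17.7% of the SIN-3 list (adjusted p = 2.57e-47 and 5.53e-23, Fisher's exact test). All 3 of these partners were met more often by ZFP-1 than by TOP-2 peaks, of which 1.29% met SCC-1, 2.59% SIN-3 and 2.16% JMJD-2 (adjusted p = 3.18e-07, 6.98e-10 and 5.86e-06, Fisher's exact test). The difference between ZFP-1 and BLMP-1 in the share with SIN-3, 10.9% against 8.15% (adjusted p = 0.0173, Fisher's exact test), did not pass on the autosomes alone (1.39 points, adjusted p = 0.333).

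**Figure D3:**
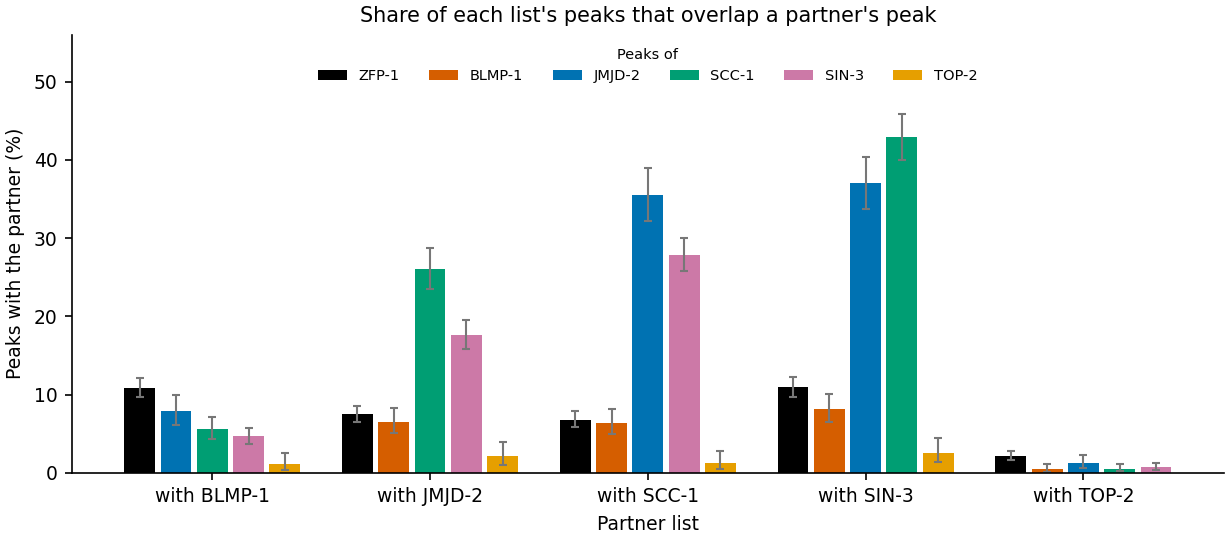
Share of each list's peaks that overlap a peak of the partner by at least 1 bp (vertical axis, percent), with 1 group of bars per partner (horizontal axis) and the bar of ZFP-1 first in each group. Bars are shares and whiskers exact 95% intervals. ZFP-1 is the tallest bar for BLMP-1 and TOP-2 and stands far below JMJD-2, SCC-1 and SIN-3 in their groups.

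Where peaks overlapped, their midpoints were close. The median offset from the ZFP-1 midpoint was 17.8 bp for SCC-1, 20.8 bp for JMJD-2 and 25.8 bp for SIN-3, and it was 50.2 bp for BLMP-1 and 66.5 bp for TOP-2. For JMJD-2, 81.0% of the overlapping ZFP-1 peaks had a midpoint within 50 bp, for BLMP-1 50% and for TOP-2 44.2%. BLMP-1 peaks are wider than the others (median 336 bp, widest 11192 bp), so that an overlap with BLMP-1 allows a larger offset.

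The density of other peaks around ZFP-1 differed between partners in how far it reached. Within 50 bp of a ZFP-1 midpoint it was 74.2 times the list's own mean density for JMJD-2, 55.4 times for BLMP-1, 46.2 times for SIN-3, 45.2 times for SCC-1 and 20.1 times for TOP-2. Between 2 and 5 kb it was 1.00 times the mean for SCC-1, 1.13 for SIN-3, 1.27 for JMJD-2 and 1.39 for TOP-2, and still 2.12 times for BLMP-1. By this measure peaks of BLMP-1 lay near ZFP-1 peaks over several kb, which an overlap does not count. The measure counts pairs, so a peak close to several ZFP-1 peaks is counted once for each of them. How far this raised the values for BLMP-1 was not tested.

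**Figure D4:**
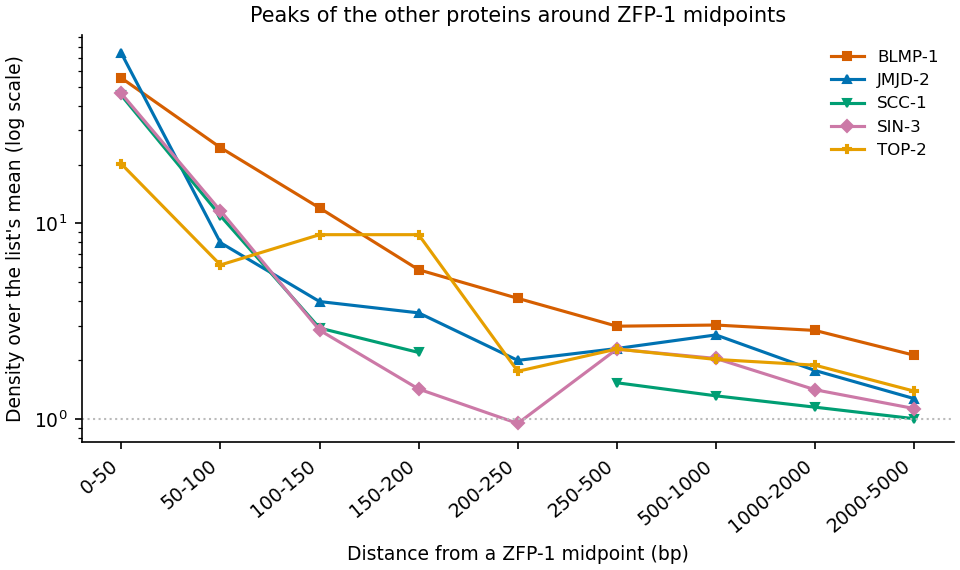
Density of peaks of each other protein by distance from a ZFP-1 midpoint (horizontal axis, bp, bins of unequal width), divided by the mean density of that list (vertical axis, log scale; dotted line, the mean). Lines join the bins, and SCC-1 has no point from 200 to 250 bp because no pair fell there. All lists are highest within 50 bp, and BLMP-1 stays highest beyond 250 bp.

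Partners at a ZFP-1 peak came in sets. Of ZFP-1 peaks with SCC-1, 64.3% also had SIN-3, against 7.05% of those without SCC-1 (adjusted p = 8.53e-69, two-sided Fisher's exact test, Benjamini-Hochberg over 10 pairs). Of those with JMJD-2, 46.2% also had SCC-1, against 3.64% of those without JMJD-2, and 50% also had SIN-3, against 7.80% (adjusted p = 1.63e-57 and 1.79e-44, Fisher's exact test). Over the whole lists, 42.9% of SCC-1 peaks met SIN-3, and 35.5% and 37.0% of JMJD-2 peaks met SCC-1 and SIN-3. These 3 lists thus met each other often over the genome as a whole, not only at ZFP-1 peaks. BLMP-1 went along with these 3 to a smaller degree. Of ZFP-1 peaks with BLMP-1, 12.7% also had JMJD-2, against 6.82% without BLMP-1, and 11.6% had SCC-1, against 6.23% (adjusted p = 0.00310 and 0.00561, Fisher's exact test; the difference for SCC-1 was 8.93 points at 50% overlap). For SIN-3 the shares were 14.9% with BLMP-1 and 10.5% without it, which did not pass (adjusted p = 0.0625, Fisher's exact test), though they did where at least 50% of both peaks had to overlap (7.29 points, adjusted p = 0.00524). None of the 4 pairs with TOP-2 passed (adjusted p from 0.519 to 1, Fisher's exact test), with 2 to 4 ZFP-1 peaks per pair.

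The sets are visible in the counts of exact combinations. After BLMP-1 alone (202 ZFP-1 peaks), SIN-3 alone (120) and JMJD-2 alone (62), the next was JMJD-2 with SCC-1 and SIN-3 together (54), ahead of TOP-2 alone (43), SCC-1 alone (40), SCC-1 with SIN-3 (31) and JMJD-2 with SIN-3 (21). Of the 16 ZFP-1 peaks with 4 partners, 15 had BLMP-1, JMJD-2, SCC-1 and SIN-3. These 15 began on I at 8816434 and 9163404, on II at 10174319 and 10658716, on III at 3067993, 3867438 and 13462901, on IV at 654774, 1659146, 4390521, 4725488 and 9196276, on V at 8606217 and on X at 2242856 and 7068416, and were 217 to 274 bp wide. The remaining one, on X from 16681862 to 16682230, was 369 bp wide and had TOP-2 in place of BLMP-1.

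No difference in chromosomal position between ZFP-1 peaks with and without partners passed the test. X held 20.9% of the ZFP-1 peaks with a partner and 17.9% of those without (adjusted p = 0.361, two-sided Fisher's exact test, Benjamini-Hochberg over 12 tests), and 59.5% and 61.0% of the autosomal ones were on arms (adjusted p = 0.708, Fisher's exact test). For single partners none of the other 10 tests passed. The smallest p-values were on X, where 30.8% of ZFP-1 peaks with TOP-2 (16 of 52) and 25.5% of those with JMJD-2 (47 of 184) lay, against the 17.9% without partner (adjusted p = 0.162 and 0.156, raw p = 0.0270 and 0.0130, Fisher's exact test). By chromosome the share with a partner was between 22.9% (II) and 29.7% (X), and by arm or center between 14.9% on the left arm of V (17 of 114) and 35.5% on the left arm of I (43 of 121).

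Width hardly set partnered ZFP-1 peaks apart. The median was 249 bp with a partner and 251 bp without, and 241 bp with 2 or more partners. Sorted by width into 4 bins of about equal number, from narrow to wide, 30.1%, 25.3%, 26.2% and 24.6% of ZFP-1 peaks had a partner, so that wider peaks, which offer more bases to overlap, did not have partners more often.

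Unpartnered ZFP-1 peaks ranged widely in their distance to the nearest site of another protein. The nearest peak of another list was 7.94 kb away in the median, midpoint to midpoint. Of the 1811 unpartnered peaks, 206 (11.4%) had one within 1 kb and 701 (38.7%) within 5 kb. The distances were not set against what the density of the lists alone would give. For 396 of them (21.9%) it was more than 20 kb away, for 5 more than 100 kb, and the largest distance was 132 kb. Over all ZFP-1 peaks, 34.8% had a foreign midpoint within 1 kb and 67.8% within 10 kb.

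Close groups of ZFP-1 peaks were common. A cluster was defined as 2 or more ZFP-1 peaks with at most 2 kb from the end of one to the start of the next. There were 269 clusters with 619 peaks (25.1%, 23.4 to 26.9%), of which 219 held 2 peaks, 35 held 3, 8 held 4, 4 held 5, 2 held 7 and 1 held 10. Their median span was 1.69 kb. Between clustered peaks the space from end to start was 866.5 bp in the median, and the closest pair was 60 bp apart. A limit of 1 kb gave 156 clusters, 5 kb gave 444 and 10 kb gave 522.

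Clusters of ZFP-1 were not kept to 1 region of the chromosomes. They held 25.02% of the ZFP-1 peaks on autosomal arms (22.6 to 27.6%), 26.1% in centers (23.0 to 29.3%) and 23.6% on X (19.8 to 27.8%), intervals that overlap. By chromosome III had the most clusters per Mb, 3.77 with 28.7% of its ZFP-1 peaks, and V the fewest, 1.67 with 21.1%. By the same 2-kb rule, 26.9% of TOP-2, 19.6% of BLMP-1, 18.0% of SCC-1, 17.7% of SIN-3 and 13.0% of JMJD-2 peaks were clustered. A longer list has more close pairs for its length alone, so these shares are given as a description.

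The cluster with the most ZFP-1 peaks lay on III from 8794715 to 8802700 and held 10 peaks in 7.99 kb. Its peaks began at 8794715, 8795713, 8796935, 8797363, 8798044, 8799742, 8800246, 8800979, 8801967 and 8802512 and were 189 to 277 bp wide, with 429 to 1708 bp between neighbouring midpoints. The first and the ninth overlapped a BLMP-1 peak, the sixth and the seventh a SIN-3 peak, and the other 6 no peak of any list. By number alone, the range falls inside zfp-1, the gene of the protein itself, and meets 2 further genes (F54F2.6 and F54F2.13) in the RefSeq table of another assembly, WBcel235. Positions were not converted between assemblies, so whether the cluster lies in zfp-1 in ce10, and what these 10 peaks then stand for, was not tested. The next in number were a cluster of 7 on I from 5311447 to 5316643, in which 2 peaks met BLMP-1, and a cluster of 7 on II from 3956244 to 3961540, in which no peak had a partner. On X a cluster of 5 from 15273351 to 15277000 had partners at 4 peaks, from BLMP-1 and TOP-2, and on II a cluster of 5 from 11632747 to 11636818 held the widest ZFP-1 peak and had partners at 2 peaks. In all, 141 of the 269 clusters (52.4%) had a partner at 1 or more of their peaks. With 2 or more peaks in each cluster, this share exceeds a share per peak by construction. Peak by peak, 29.6% of clustered ZFP-1 peaks had a partner.

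Clustered ZFP-1 peaks differed from single ones in which partners they met. BLMP-1 was found at 16.0% of clustered peaks (99 of 619) and at 9.15% of single peaks (169 of 1847; adjusted p = 2.88e-05, two-sided Fisher's exact test, Benjamini-Hochberg over 6 tests). For SCC-1 the order was the opposite, with 3.39% of clustered and 7.96% of single peaks (adjusted p = 0.000131, Fisher's exact test). SIN-3 with 8.56% and 11.7%, JMJD-2 with 6.14% and 7.90%, TOP-2 with 2.58% and 1.95% and any partner with 29.6% and 25.6% of clustered and single peaks did not pass (adjusted p from 0.0616 to 0.335, Fisher's exact test). Both passed at each cluster limit and without the cluster of 10, but with smaller differences at the wider limits. For BLMP-1, 6.84 points at 2 kb stood against 3.36 at 5 kb and 3.12 at 10 kb (adjusted p = 0.0179 and 0.0270, Fisher's exact test), and for SCC-1, -4.57 points at 2 kb against -2.80 at 10 kb (adjusted p = 0.0270, Fisher's exact test). Without BLMP-1 peaks wider than 1 kb the BLMP-1 difference was 5.71 points (adjusted p = 0.000297, Fisher's exact test). Where the overlap had to cover at least 50% of both peaks, the BLMP-1 difference was 1.69 points and did not pass (adjusted p = 0.277, Fisher's exact test). The widest BLMP-1 peaks cannot meet that criterion with a ZFP-1 peak, and whether this lowered the difference was not tested. The SCC-1 difference kept its call at 50% overlap (adjusted p = 0.000550, Fisher's exact test).

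**Figure D5:**
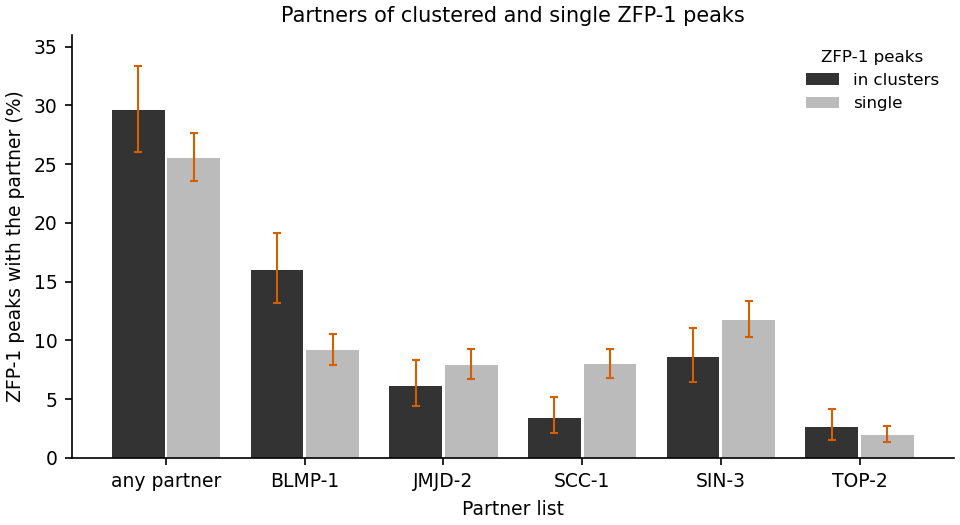
Share of ZFP-1 peaks that overlap a peak of each partner, or of any (vertical axis, percent; horizontal axis, partner), for peaks in clusters (dark) and single peaks (light). Bars are shares and whiskers exact 95% intervals. BLMP-1 is higher in clusters (16.0% and 9.15%) and SCC-1 lower (3.39% and 7.96%), and these are the 2 differences that passed.

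The number of partners and clustering went together unevenly. Clusters held 32.8% of ZFP-1 peaks with exactly 1 partner, 16.0% of those with 2 or more and 24.1% of those with none. By partner they held 36.9% of ZFP-1 peaks with BLMP-1, 30.8% of those with TOP-2, 20.7% with JMJD-2, 19.6% with SIN-3 and 12.5% with SCC-1. The next ZFP-1 peak was 5.09 kb away in the median for ZFP-1 peaks with BLMP-1 and 12.6 kb away for those with SCC-1.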

How the data were processed

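ChIP-seq was performed by the authors in L3 larvae, and the submitters' processing notes name BWA, MACS2 and the build ce10, with versions not given in the sources used here. The authors called peaks with YAPC (MACS2 in the case of BLMP-1) and combined replicates at an IDR threshold of 0.01. The deposited lists hold chromosome, start and end only, so that depth and peak strength are unknown. No annotation of ce10 was used, and no peak was assigned to a gene; RefSeq's table of WBcel235 was used for gene names only. Each list was read once, and no column of another sample was used.

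Chromosomes were taken to end where the last peak of the 6 lists ended. Arms were the outer 33.3% at each end, a partner an overlap of at least 1 bp, and a cluster ZFP-1 peaks at most 2 kb apart. Windows of 1 Mb were moved by 100 kb for the extremes. Shares were compared with Fisher's exact test (scipy 1.17.1, numpy 2.4.6, Python 3.11.15), adjusted by Benjamini-Hochberg within 7 families of 64 tests in all, at an adjusted p of 0.05, with exact 95% intervals. Of the tests, only those of arms were run on simulated positions, which were placed independently of each other. Peaks are the units, neighbouring peaks need not be independent, and p-values do not measure the spread between animals. In comparisons between lists, a site with peaks of both lists stands on both sides, whereas Fisher's exact test takes the sides as separate. Sites are named by rule: the 5 clusters with the most peaks (ties by shortest span, so that 2 of 4 clusters with 5 peaks are named), the 5 longest stretches without a peak, the richest and poorest window of each chromosome, peaks with 4 partners, the 3 widest and 3 narrowest peaks, and the first and last of each chromosome. Beyond that rule, the members of the cluster of 10, the left arms of I and V, the window summaries and the smallest gaps were described after their values were seen. The members and lists were chosen with earlier results of these data known.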

Additional observations from a re-analysis of the deposited data

How the results depend on the processing

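The 64 tests were rerun under 277 combinations of a test with an alternative. Of these, 237 kept their direction and their side of the threshold, 12 lost and 12 gained a call, and 16 turned direction. Some reruns could not change a difference, and they count among the 237. Leaving out wide BLMP-1 peaks cannot act on a difference without BLMP-1, nor another arm width on a share on X. The causes of the changes were not tested. Values are differences in percentage points with the adjusted p of Fisher's exact test. For arms, arms of 25% at each end gave -5.41 against JMJD-2 (0.0182); merging within 1 kb gave -4.48 against SCC-1 (0.0516) and -3.01 against SIN-3 (0.127), merging within 10 kb -3.38 against SIN-3 (0.113), and peaks without partners -5.60 against SCC-1 (0.0565). For the share with BLMP-1 against JMJD-2, midpoints within 250 bp gave 2.26 (0.0726), 50% overlap 0.966 (0.412) and autosomes alone 2.74 (0.0569). For the share with SIN-3 against BLMP-1, autosomes gave 1.39 (0.333) and leaving out BLMP-1 peaks over 1 kb 2.38 (0.0506). For SIN-3 at ZFP-1 peaks with BLMP-1, 50% overlap gave 7.29 (0.00524), autosomes 6.01 (0.0173) and no wide BLMP-1 peaks 5.15 (0.0252); TOP-2 with SIN-3 on autosomes gave -2.01 (0.0392). Short gaps at 2% gave -3.02 against JMJD-2 (0.00136) and -1.41 against SIN-3 (0.0400), both turned and passing, and -4.21 against SCC-1 (1.98e-06); at 10% they gave 4.51 against JMJD-2 (0.0143), 4.75 against SIN-3 (0.000695) and -0.279 against BLMP-1 (0.854), and autosomes -3.42 against BLMP-1 (0.0632). Clusters at 1 kb gave 6.49 for any partner (0.0227), SIN-3 -3.71 at 5 kb (0.0102), -3.28 at 10 kb (0.0270) and -3.37 without the cluster of 10 (0.0403), and BLMP-1 1.69 at 50% overlap (0.277). The other 14 that turned passed under neither setting: the share on V without partnered peaks (-0.116); on autosomes, JMJD-2 (-0.108) and SCC-1 (-0.194) shares against BLMP-1; X shares of ZFP-1 peaks with SIN-3 at 500 bp (-0.408) and merged within 10 kb (-0.487), and with BLMP-1 at 50% overlap (-2.58) and merged within 10 kb (-0.150); arm shares with TOP-2 for arms of 25% (-2.13) and with SCC-1 merged within 10 kb (-0.0090); TOP-2 with JMJD-2 at 500 bp (0.406); short gaps against SCC-1 at 10% (2.52); and, clustered against single, any partner at 10 kb (-0.181) and 50% overlap (-0.549) and TOP-2 at 10 kb (-0.247). The number of clusters, 269, was 156 at 1 kb, 444 at 5 kb and 522 at 10 kb. Leaving out wide BLMP-1 peaks, the cluster of 10, and 50% overlap for clusters were chosen after seeing the data. No paired analysis was possible because the 2 replicates of each protein were combined into 1 list before deposit, so no replicate could be left out, and without scores no stricter peak threshold could be set.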
